A study of Mus musculus with 12 samples.

Results

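The genes described here are 40 genes of the cell division cycle, chosen by name: early genes of the G1 to S transition and of S phase, and late genes of G2, mitosis and cytokinesis, with the MCM subunits of the replicative helicase left out. Each gene was read from 1 probe set, the one with the highest mean over the 12 arrays. A probe set carrying a single gene symbol was found for 39 of the 40, of the 13899 genes covered by tested probe sets. Ccnb1, which encodes cyclin B1, has no such probe set and is not measured here. Of the 39, 10 were early and 29 late, and all 39 passed the filter on low values.

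RNA came from regulatory T cells (Tregs), CD4 T cells that restrain other immune cells, purified by fluorescence-activated sorting and taken fresh, without treatment or culture. The 4 genotypes were wild type (WT), mice labelled as lacking Ebi3 (Ebi3_KO), Il10 (Il10_KO) or both (DKO), with 3 Affymetrix mouse arrays each. Ebi3 is a chain of the cytokines IL-35 and IL-27, and Il10 encodes IL-10, both cytokines by which Tregs act on other cells. The labels put replicate 1 of every genotype in batch 1, replicate 2 in batch 2 and replicate 3 in batch 3, and every genotype is thus present once in each batch. They give no strain, age, sex, allele, tissue of origin or number of pooled animals, and they do not say that replicates are separate animals, so p-values measure the spread between these samples, which may be technical.

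A dividing cell first makes the cyclins, nucleotide enzymes and clamp proteins of DNA replication, under the control of E2F factors. It later makes the cyclins, kinases, kinetochore proteins and motor proteins that build the spindle, separate the chromosomes and split the cell, under the control of MuvB complexes with B-MYB and FOXM1. Tregs are known to hold a larger cycling fraction than most resting T cells, and transcripts of these genes in a sorted population follow the number of cycling cells. In bulk RNA, fewer cycling cells and less RNA of these genes per cell cannot be told apart.

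Promoters of late cycle genes are known for the cell cycle genes homology region, TTTGAA, often beside CCAAT boxes bound by NF-Y. The stretches of 120 bases just upstream of the annotated start are shown for 4 late and 2 early genes, because the late stretches hold both motifs and the early ones hold a CCAAT box alone. They come from the RefSeq promoter table of build GRCm38.p6, on the strand of the gene, with TTTGAA and CCAAT on either strand in capitals (their reverse complements read TTCAAA and ATTGG). The first 4 are late genes, and Pcna and Rrm2 are early.
Cdk1: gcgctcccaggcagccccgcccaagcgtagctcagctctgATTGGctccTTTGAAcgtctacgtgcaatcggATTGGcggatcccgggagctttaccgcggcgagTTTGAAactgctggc
Cdc20: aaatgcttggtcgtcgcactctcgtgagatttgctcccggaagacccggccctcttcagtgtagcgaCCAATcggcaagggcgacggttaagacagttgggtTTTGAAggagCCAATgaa
Ube2c: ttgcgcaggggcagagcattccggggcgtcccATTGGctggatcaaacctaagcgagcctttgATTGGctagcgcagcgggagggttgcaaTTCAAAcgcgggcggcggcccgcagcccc
Kif11: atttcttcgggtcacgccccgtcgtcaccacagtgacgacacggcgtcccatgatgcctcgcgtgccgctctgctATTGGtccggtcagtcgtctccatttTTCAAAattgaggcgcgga
Pcna: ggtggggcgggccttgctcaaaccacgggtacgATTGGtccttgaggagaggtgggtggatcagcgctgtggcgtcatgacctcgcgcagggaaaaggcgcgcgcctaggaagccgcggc
Rrm2: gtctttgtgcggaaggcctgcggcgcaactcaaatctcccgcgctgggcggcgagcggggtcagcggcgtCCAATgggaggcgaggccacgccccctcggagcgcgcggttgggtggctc

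These stretches lie at chr10:69352913-69353032 on the minus strand (Cdk1), chr4:118437344-118437463 on the minus strand (Cdc20), chr2:164769809-164769928 on the plus strand (Ube2c), chr19:37376262-37376381 on the plus strand (Kif11), chr2:132253181-132253300 on the minus strand (Pcna) and chr12:24708134-24708253 on the plus strand (Rrm2). Each was outside the annotated gene. The table held a promoter of 300 bases, 250 before and 50 after the start, for 34 of the 40 genes. Ccne2, Ccna2, Foxm1, Tpx2, Aurkb and Kif20a had no entry. A gene with more than 1 entry was counted if any of them held the motif.

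TTTGAA stood in the promoter of 17 of 25 late genes (68%), among them Mki67, Top2a, Ccnb2, Cdk1, Bub1b, Cenpf and Plk1. Among early genes it stood in 1 of 9 (11.1%), E2f2. Of all 32851 promoters of that length, 17.9% held it. CCAAT stood in 19 of 25 late genes (76%), in 4 of 9 early genes (44.4%) and in 37.4% of all promoters. Both together stood in 16 of 25 late genes (64%), against 6.95% of all promoters. The related sequence TTCGAA, which reads the same on both strands, stood in 3 late genes (12%; Bub1, Bub1b and Top2a) and in 1.56% of all. The 2 strict forms of the E2F motif searched were rare in this window: TTTCGCGC was found in Cdk1 alone and in 0.323% of all promoters, and TTTGGCGC in E2f2 alone and in 0.514%. None of these motifs contains another, both strands were searched, and a match is a description of the letters in this window.

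Ebi3, the gene targeted in Ebi3_KO and DKO, read signals of 1159 to 1727.8 in WT and 1062.5 to 2057.3 in Il10_KO, against 3 to 39.5 in Ebi3_KO and 15.2 to 72.5 in DKO, as the labels state. Il10 signals in batches 1, 2 and 3 were 184.5, 2939.8 and 483.8 in WT, 1401.1, 2384.6 and 574.4 in Ebi3_KO, 2038.2, 1976 and 1027.8 in Il10_KO and 2250.8, 2639.6 and 1016.7 in DKO. They were thus not lower in the libraries labelled as lacking Il10 than in the others. The labels name no allele, so whether this probe set lies in a deleted part is not known, and the Il10 status of these libraries was not checked by it. Il10_KO and DKO below mean the libraries labelled so. Signals are linear MAS5 values with the same trimmed mean of 500 on every array as deposited, and the array medians lay between 59.5 and 89.3. Of the Treg markers, 10 of 11 had a probe set and all 10 were tested, with Foxp3, the defining factor of Tregs, at 4945.3 to 7955. Markers of other cells were also present. The summed signal of 12 neutrophil and myeloid markers ranged from 6505 to 32981 in WT, 3555 to 24292 in Ebi3_KO, 3340 to 47702 in Il10_KO and 4787 to 48195 in DKO, with the highest array means in batch 3 for every genotype. That of 6 B cell markers ranged from 15447 to 25521 in WT and from 14756 to 27802 in DKO. Hba-a1 of red cells and Rag1 and Ptcra of thymocytes stayed below the array's 40th percentile on all 12 arrays. In both of the sums given for WT and DKO the groups overlapped, and their part in the results below was not tested.

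All but 4 of the measured cycle genes read above the array median on all 12 arrays. The exceptions were Tyms (4 of 12 arrays), Ttk (6), Bub1 (10) and Nuf2 (11). In these genes the arrays of batch 1 differed most among themselves. The mean of log2(signal + 20) over the 29 late genes was lowest in Ebi3_KO replicate 1 (7.92) and highest in DKO replicate 1 (8.71). The 3 WT arrays lay close together at 8.52, 8.54 and 8.66. A moderated F test in limma called 15 of the 39 genes for batch, against 41.8% of all tested probe sets, and 9 when Ebi3_KO replicate 1 was left out. Among those called for batch were Pcna, Rrm2, Ccnb2 and Bub1b, while Mki67 and Ccna2 were not called.

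**Figure D1:**
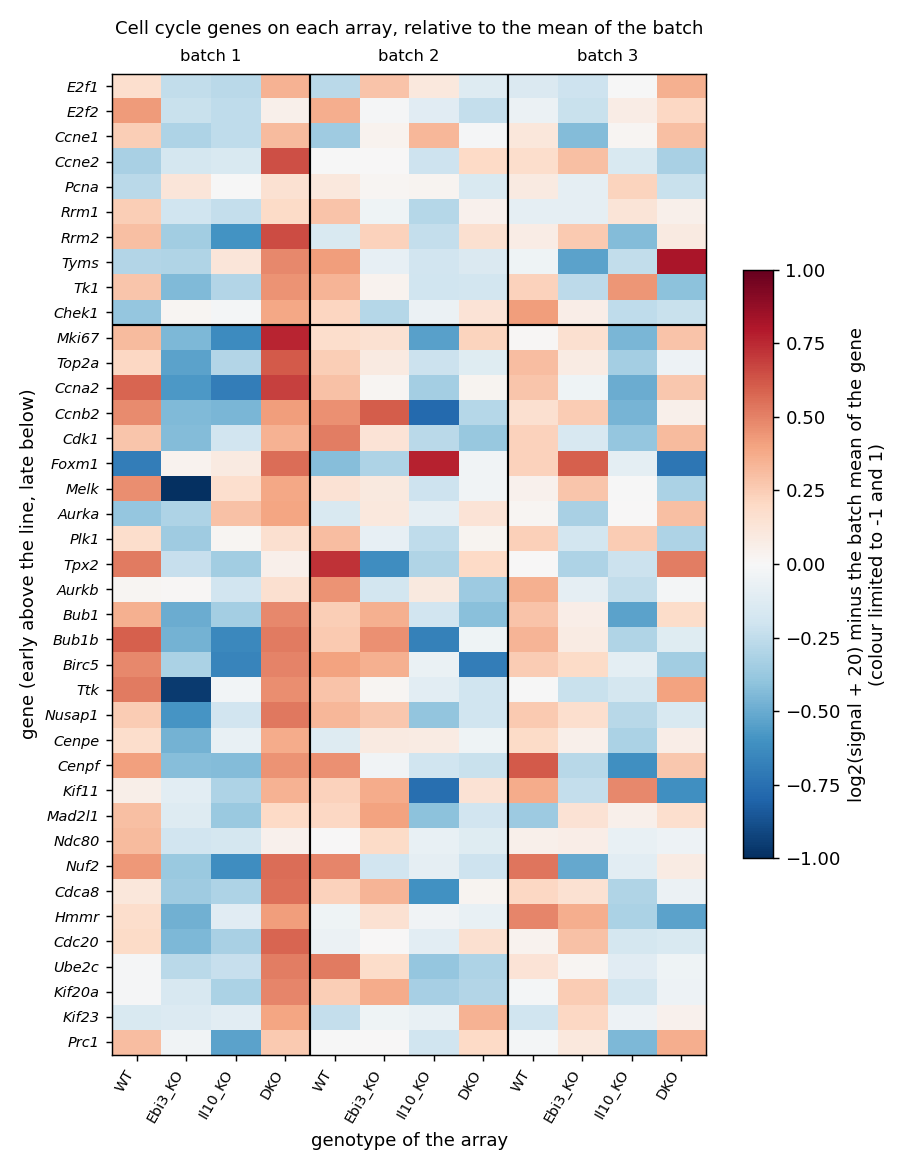
Each of the 39 measured genes (rows, early genes above the line and late genes below) on each of the 12 arrays (columns, grouped by batch), as log2(signal + 20) minus the mean of the 4 arrays of that batch; the colour scale is limited to -1 and 1. Il10_KO columns are mostly blue among late genes in all 3 batches, while in batch 1 Ebi3_KO is mostly blue and DKO mostly red.

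In Il10_KO against WT, late cycle genes lay lower in all 3 batches, and early genes showed a smaller shift with mixed signs. Of the 29 late genes, 26 read below 0, with a median log2 difference of -0.46, and 21 were lower in every batch. Of the 10 early genes, 7 read below 0, with a median of -0.17, and 1 (Rrm2) was lower in every batch. No single gene passed the test. The largest late differences were those of Bub1b, Ccnb2, Cenpf, Ccna2, Nuf2, Tpx2 and Mki67, from -0.94 to -0.71.

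Over all 39 genes, 33 lay below 0, with a median of -0.366, beside a median of -0.001 over all tested probe sets. The medians within batches 1, 2 and 3 were -0.48, -0.47 and -0.33. Limma called 0 of the 39 at an adjusted p under 0.05 in the model with genotype alone (0.0064% of all tested probe sets were called) and 0 with batch in the model (0.0384%). At an unadjusted p under 0.05, 5 were lower in the first model, against 0.775% of all tested probe sets, and 15 with batch, against 3.6%, all but Rrm2 late genes. In all 3 batches 22 of the 39 were lower, against 13.7% of all tested probe sets. All 3 Il10_KO arrays lay below all 3 WT arrays for 13 genes, each of them late, against 2.74% of all tested probe sets. These genes were chosen with earlier results of the same arrays known, so such counts describe the list and carry no test. With 100 in place of 20 under the log the median was -0.271. Of the 11 tested neutrophil and myeloid markers 9 lay below 0, with a median of -0.313, 6 of them in all batches. Dendritic cell markers went the other way, 6 of 6 above 0 (median 0.366), as did 7 of 8 CD8 T and NK cell markers (0.332). B cell markers had 4 of 6 above 0 (0.103), plasma cell markers 3 of 6 (0.02) and red cell markers 2 of 4 (-0.36). The part of these lists was not tested.

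Among regulators of the G1 to S transition no genotype stood apart in the brightest probe set of each gene. E2f1 encodes the activating E2F factor that turns on replication genes. Its signals in batches 1, 2 and 3 were 154.7, 102.7 and 140.1 in WT, 111.1, 159.7 and 133.3 in Ebi3_KO, 108.5, 139.2 and 156.6 in Il10_KO and 177.3, 115.3 and 207.1 in DKO. The 4 genotypes overlapped, and the difference of Il10_KO from WT was 0.02 ± 0.299 (log2, SE; adjusted p = 1). A dimmer E2f1 probe set read -0.49 ± 0.641 in Il10_KO and -0.83 ± 0.641 in Ebi3_KO against WT. Ccne1 encodes cyclin E1, the partner of CDK2 at the start of S phase. Its signals were 1295.1, 452.6 and 912.3 in WT, 876.5, 599 and 619.2 in Ebi3_KO, 912.9, 743.3 and 853.8 in Il10_KO and 1360.8, 580.3 and 1044.1 in DKO. Batch 2 held the lowest array of every genotype, and the genotypes overlapped throughout. This probe set read 0.03 in Il10_KO against WT, whereas a dimmer Ccne1 probe set read -1.37 ± 0.499 (adjusted p = 0.457 with batch). The dimmer one also read 1.09 in DKO against Il10_KO and 1.48 for the interaction of both knockouts (adjusted p = 1 with batch for each), so the size for Ccne1 depends on the probe set. The other members of the group, E2f2 and Ccne2, which encode another activating E2F and cyclin E2, read -0.34 and -0.12 in Il10_KO against WT, each with opposite signs between batches.

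Of the 5 S phase enzyme genes and the checkpoint kinase gene Chek1, all but Pcna lay below 0 in Il10_KO against WT, with a median of -0.237 over the 6. Pcna encodes the sliding clamp of DNA polymerases. Its signals were 9771.7, 9523.9 and 10886.3 in WT, 12778.4, 9016.7 and 9590.2 in Ebi3_KO, 11715.8, 9063.1 and 11883.7 in Il10_KO and 13083.1, 7963.5 and 8754.6 in DKO. The WT values lay inside the range of every other genotype, and Il10_KO differed from WT by 0.11 ± 0.212 (adjusted p = 1). Rrm2 encodes the regulated subunit of ribonucleotide reductase, which makes deoxynucleotides. Its signals were 1290.2, 1511.2 and 1541.7 in WT, 814.4, 1972.9 and 1755 in Ebi3_KO, 682.1, 1425.6 and 1077.6 in Il10_KO and 1652.1, 1879.8 and 1557.8 in DKO. Il10_KO was the lower of the pair in every batch, though its batch 2 array lay inside the WT range, and the 3 DKO arrays lay above all WT and Il10_KO arrays. Rrm2 read -0.50 in Il10_KO against WT (adjusted p = 0.635 with batch) and 0.72 in DKO against Il10_KO (adjusted p = 1).

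Tk1 encodes thymidine kinase, a salvage enzyme of S phase. Its signals were 548.9, 251.7 and 420.5 in WT, 325.1, 199.9 and 293.6 in Ebi3_KO, 362.6, 166.9 and 489 in Il10_KO and 620.8, 168.8 and 261.6 in DKO. Batch 2 was lowest for all 4 genotypes, and within batches Ebi3_KO was below WT each time, at -0.72, -0.31 and -0.49 on the log2 scale (mean -0.51 ± 0.484, adjusted p = 1). Tyms encodes thymidylate synthase. Its probe set was dim, at 61.6, 89 and 34.2 in WT, 61.1, 56.7 and 18.5 in Ebi3_KO, 88.8, 51.3 and 27 in Il10_KO and 119.4, 53.6 and 78.3 in DKO. The genotypes overlapped, and on most arrays Tyms was below the array median. Rrm1, the other reductase subunit, read -0.28 and Chek1 -0.20 in Il10_KO against WT, with mixed signs over the batches.

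The marker of cycling cells, Mki67, showed the clearest separation of the genes described. It encodes Ki-67, a protein of proliferating nuclei that coats mitotic chromosomes. Its signals were 1981.1, 2070.6 and 2016.9 in WT, 1154, 2040.3 and 2237.1 in Ebi3_KO, 1014.8, 1249.7 and 1454.2 in Il10_KO and 2695.7, 2140.7 and 2436.9 in DKO. All Il10_KO arrays lay below all WT arrays, all DKO arrays lay above both groups, and Ebi3_KO had 1 low array, that of batch 1. The group means were 2022.9 ± 45 in WT, 1239.6 ± 220 in Il10_KO and 2424.4 ± 278 in DKO (SD, n = 3). Il10_KO differed from WT by -0.71 ± 0.252 (adjusted p = 1; with batch 0.435, 95% interval -1.14 to -0.28), lower in 3 of 3 batches. DKO differed from Il10_KO by 0.97 ± 0.252 (adjusted p = 1; with batch 0.419), higher in 3 of 3 batches at 1.39, 0.77 and 0.74. Its F test over genotypes with batch in the model had the smallest p of the 39 genes, with an adjusted p of 0.462.

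Top2a encodes the topoisomerase that untangles DNA before chromosomes separate. Its signals were 1247.4, 1507.1 and 1771.8 in WT, 737.6, 1346.1 and 1518.2 in Ebi3_KO, 874.5, 1085.9 and 1128.2 in Il10_KO and 1657.3, 1159.5 and 1379.1 in DKO. The Il10_KO arrays lay below all WT and all DKO arrays. The difference from WT was -0.54 ± 0.28, and batches 1, 2 and 3 gave -0.50, -0.47 and -0.64 (adjusted p = 1, and 0.625 with batch).

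**Figure D2:**
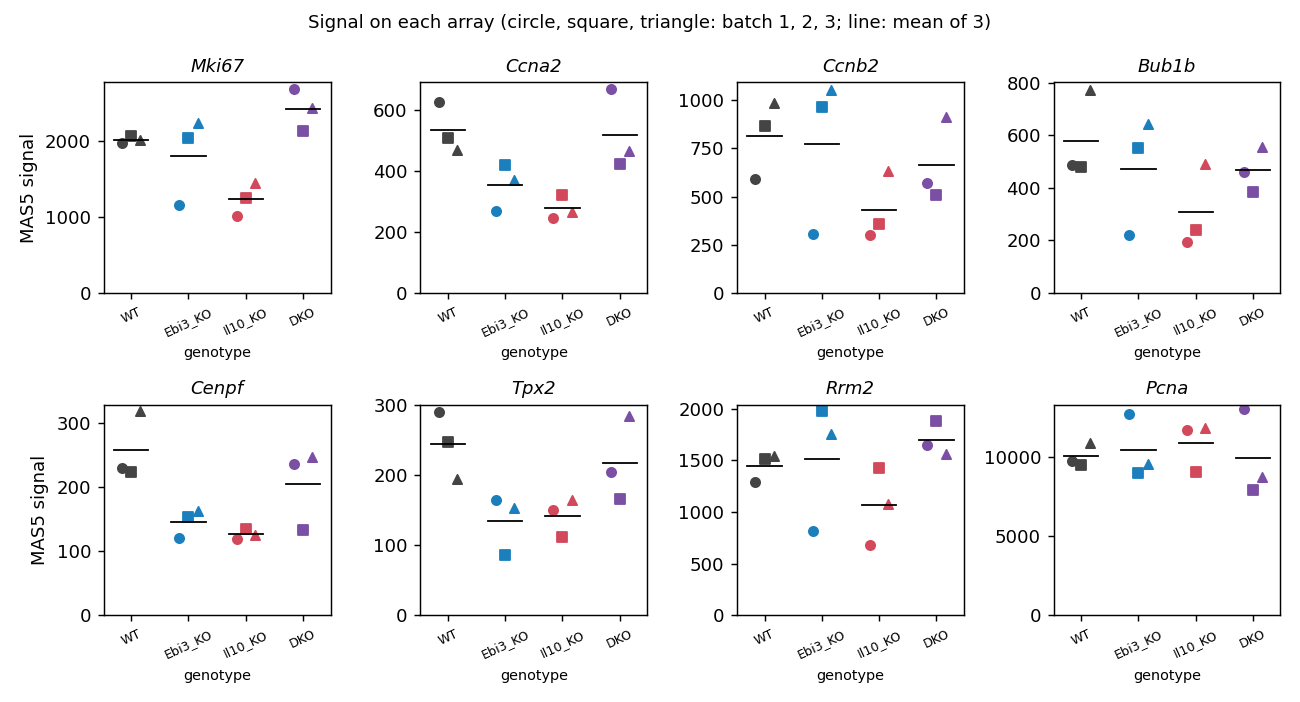
Linear MAS5 signal of 8 genes on each array by genotype; circle, square and triangle mark batches 1, 2 and 3, and the line is the mean of the 3 arrays. Mki67 and Ccna2 show all 3 Il10_KO arrays below WT and DKO, while Pcna overlaps throughout; each panel has its own axis starting at 0, and levels of different genes are not comparable.

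The cyclins and kinases of G2 and mitosis held some of the largest differences of Il10_KO from WT. They also held a pair of genes that pointed upward, Foxm1 and Aurka, though for Foxm1 the direction depended on the probe set. Of the 7 measured, 5 lay below 0 and 4 were lower in all batches. Ccna2 encodes cyclin A2, needed in S phase and at entry into mitosis. Its signals were 624.1, 509 and 467.9 in WT, 268.3, 418.3 and 370.3 in Ebi3_KO, 246.2, 321.3 and 265.6 in Il10_KO and 668.9, 421.5 and 465.8 in DKO. All Il10_KO and all Ebi3_KO arrays lay below all WT arrays and below all DKO arrays, and WT and DKO overlapped. The difference from WT was -0.89 ± 0.266 in Il10_KO (adjusted p = 1, and 0.388 with batch) and -0.58 ± 0.266 in Ebi3_KO (adjusted p = 1, and 0.91 with batch). A somewhat dimmer Ccna2 probe set read -0.5 in Il10_KO and -0.17 in Ebi3_KO.

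Ccnb2 encodes cyclin B2, a partner of CDK1 in mitosis. Its signals were 593, 867.6 and 984 in WT, 305.7, 964.8 and 1055.7 in Ebi3_KO, 301.4, 356.8 and 633.2 in Il10_KO and 570, 509.2 and 913 in DKO. Il10_KO was the lowest of the 4 genotypes in every batch, although its batch 3 array lay above the WT array of batch 1. The difference of Il10_KO from WT was -0.93 ± 0.448 (adjusted p = 1, and 0.445 with batch). Cdk1 encodes the kinase that drives entry into mitosis, and its promoter stretch above holds a pair of TTTGAA motifs. Its signals were 375.8, 344.5 and 328.8 in WT, 221.2, 260.4 and 246.9 in Ebi3_KO, 264.8, 192.5 and 208.1 in Il10_KO and 395.8, 176.6 and 351.9 in DKO. Both single knockouts lay below WT on every array, and DKO had its batch 2 array at the bottom of all 12. Cdk1 read -0.62 ± 0.298 in Il10_KO and -0.49 ± 0.298 in Ebi3_KO against WT (adjusted p = 1 for each).

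Plk1 encodes the polo-like kinase of centrosome maturation and spindle assembly. Its signals were 264.6, 171.5 and 230.9 in WT, 177.5, 126 and 167 in Ebi3_KO, 236.4, 109.3 and 233.3 in Il10_KO and 262.4, 137 and 152 in DKO. Ebi3_KO lay below WT in each batch, whereas Il10_KO matched WT in batch 3 (0.01). Its differences from WT were -0.45 ± 0.349 in Ebi3_KO and -0.23 ± 0.349 in Il10_KO (adjusted p = 1 for each). Foxm1, the transcription factor of G2 and mitosis genes, ran against the rest in its brightest probe set. Its signals were 137.3, 160.5 and 160.7 in WT, 240.1, 175.5 and 213.2 in Ebi3_KO, 250.2, 393.3 and 124.2 in Il10_KO and 354.6, 216 and 73.3 in DKO. Ebi3_KO lay above all WT arrays, and Il10_KO and DKO spread from below to above WT. Foxm1 has 3 tested probe sets. From brightest to dimmest they read 0.4, -0.3 and -0.52 in Ebi3_KO and 0.55, 0.11 and -0.47 in Il10_KO against WT. For the interaction of both knockouts they read -0.72, 0.29 and 0.76, so its direction depends on the probe set. Aurka, encoding the Aurora kinase of spindle poles, read 0.24 in Il10_KO against WT, and Melk, encoding a kinase of dividing cells, read -0.23.

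All 15 measured genes of the kinetochore, the spindle checkpoint and the spindle lay below 0 in Il10_KO against WT, from -0.94 to -0.18 with a median of -0.57, and 11 were lower in every batch. All 15 lay above 0 in DKO against Il10_KO, by 0.04 to 0.66, and 5 of them in every batch. Tpx2 encodes a factor that nucleates spindle microtubules and activates Aurora A. Its signals were 290, 247.4 and 193.9 in WT, 164.3, 85.2 and 152.4 in Ebi3_KO, 149.5, 111 and 163.7 in Il10_KO and 204.1, 165.1 and 284 in DKO. Both single knockouts lay below all WT and all DKO arrays, and the single knockouts overlapped each other. Tpx2 read -0.80 ± 0.317 in Ebi3_KO (adjusted p = 1, and 0.91 with batch) and -0.71 ± 0.317 in Il10_KO (adjusted p = 1, and 0.575 with batch). Its dimmer probe sets read 0.44, -0.26 and 0.12 in Ebi3_KO and 0.47, -0.3 and 0.48 in Il10_KO against WT. The direction for Tpx2 thus depends on the probe set.

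Cenpf encodes a large kinetochore protein that appears in G2. Its signals were 228.8, 223.4 and 318 in WT, 119.8, 152.9 and 162.3 in Ebi3_KO, 119.1, 135 and 124.8 in Il10_KO and 235.5, 132.2 and 247 in DKO. As with Tpx2, both single knockouts lay below all WT arrays, while the batch 2 array of DKO lay among the knockouts. The differences from WT were -0.90 ± 0.292 in Il10_KO (adjusted p = 1, and 0.411 with batch) and -0.74 ± 0.292 in Ebi3_KO (adjusted p = 1, and 0.91 with batch). A dimmer Cenpf probe set read -0.74 in Il10_KO and 0.13 in Ebi3_KO against WT. Bub1b encodes BubR1 of the spindle checkpoint. Its signals were 486.1, 478.9 and 773.1 in WT, 221, 551.3 and 644.4 in Ebi3_KO, 194.8, 239.5 and 490.3 in Il10_KO and 461.5, 382.3 and 555.6 in DKO. Il10_KO was lowest in every batch, with overlap across batches at its batch 3 array. Of the 3 Bub1b probe sets, the brighter ones read -0.94 and -0.73 in Il10_KO against WT and the dimmest read 0.54 (adjusted p with batch 0.434, 0.612 and 0.748).

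Nusap1 encodes a protein that bundles spindle microtubules. Its signals were 467.5, 540.6 and 553 in WT, 250.7, 517.5 and 517.6 in Ebi3_KO, 336.5, 318.8 and 372.9 in Il10_KO and 568.2, 368.3 and 409.4 in DKO. All Il10_KO arrays lay below all WT arrays, and DKO reached down to the Il10_KO range. The chosen probe set read -0.57 ± 0.297 in Il10_KO against WT, and a dimmer Nusap1 probe set read 0.54 ± 0.442. Aurkb encodes the kinase of the chromosomal passenger complex, which corrects chromosome attachment. Its signals were 161.6, 301.5 and 299 in WT, 159.9, 187 and 215.2 in Ebi3_KO, 136.6, 231.7 and 190.6 in Il10_KO and 179.6, 162.8 and 226.8 in DKO. The WT array of batch 1 lay well below the other WT arrays, so all genotypes overlapped, and Il10_KO read -0.39 ± 0.309 against WT (adjusted p = 1).

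The remaining genes of this group were lower in Il10_KO in all batches for Bub1, Birc5, Ttk, Ndc80, Nuf2 and Cdca8. Bub1 encodes a checkpoint kinase, Birc5 encodes survivin, and Cdca8 encodes borealin, the latter both of the passenger complex. Ttk encodes the checkpoint kinase MPS1, and Ndc80 and Nuf2 encode microtubule-binding kinetochore proteins. Their differences were -0.65 for Bub1, -0.65 for Birc5, -0.37 for Ttk, -0.23 for Ndc80, -0.76 for Nuf2 and -0.59 for Cdca8. Mad2l1 (-0.29), Kif11 (-0.42) and Cenpe (-0.18), which encode the checkpoint protein MAD2, the spindle motor Eg5 and the kinetochore motor CENP-E, had mixed signs over the batches. For Hmmr, which encodes a spindle protein (-0.37), batch 2 gave 0.

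Of the 5 genes of anaphase and cytokinesis, 4 lay below 0 in Il10_KO against WT and were lower in every batch. Cdc20 encodes the activator of the anaphase-promoting complex. Its signals were 1016.3, 1035.4 and 1050 in WT, 644.9, 1081.6 and 1257.9 in Ebi3_KO, 708.6, 1005.3 and 903.1 in Il10_KO and 1345.8, 1213.8 and 916.8 in DKO. All Il10_KO arrays lay below all WT arrays, though the batch 2 array by little (-0.04), and the difference was -0.25 ± 0.268 (adjusted p = 1). A somewhat dimmer Cdc20 probe set read 0.26 ± 0.259 in Il10_KO against WT. For the interaction of both knockouts it read -0.03, where the chosen one read 0.51. The direction for Cdc20 thus depends on the probe set. Prc1, which encodes a bundler of the central spindle, read -0.49, Ube2c, the ubiquitin-conjugating enzyme of the anaphase-promoting complex, -0.46, and Kif20a, a motor of cytokinesis, -0.35. Kif23, another motor of the central spindle, was the exception at 0.12, slightly above WT in all 3 batches.

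**Figure D3:**
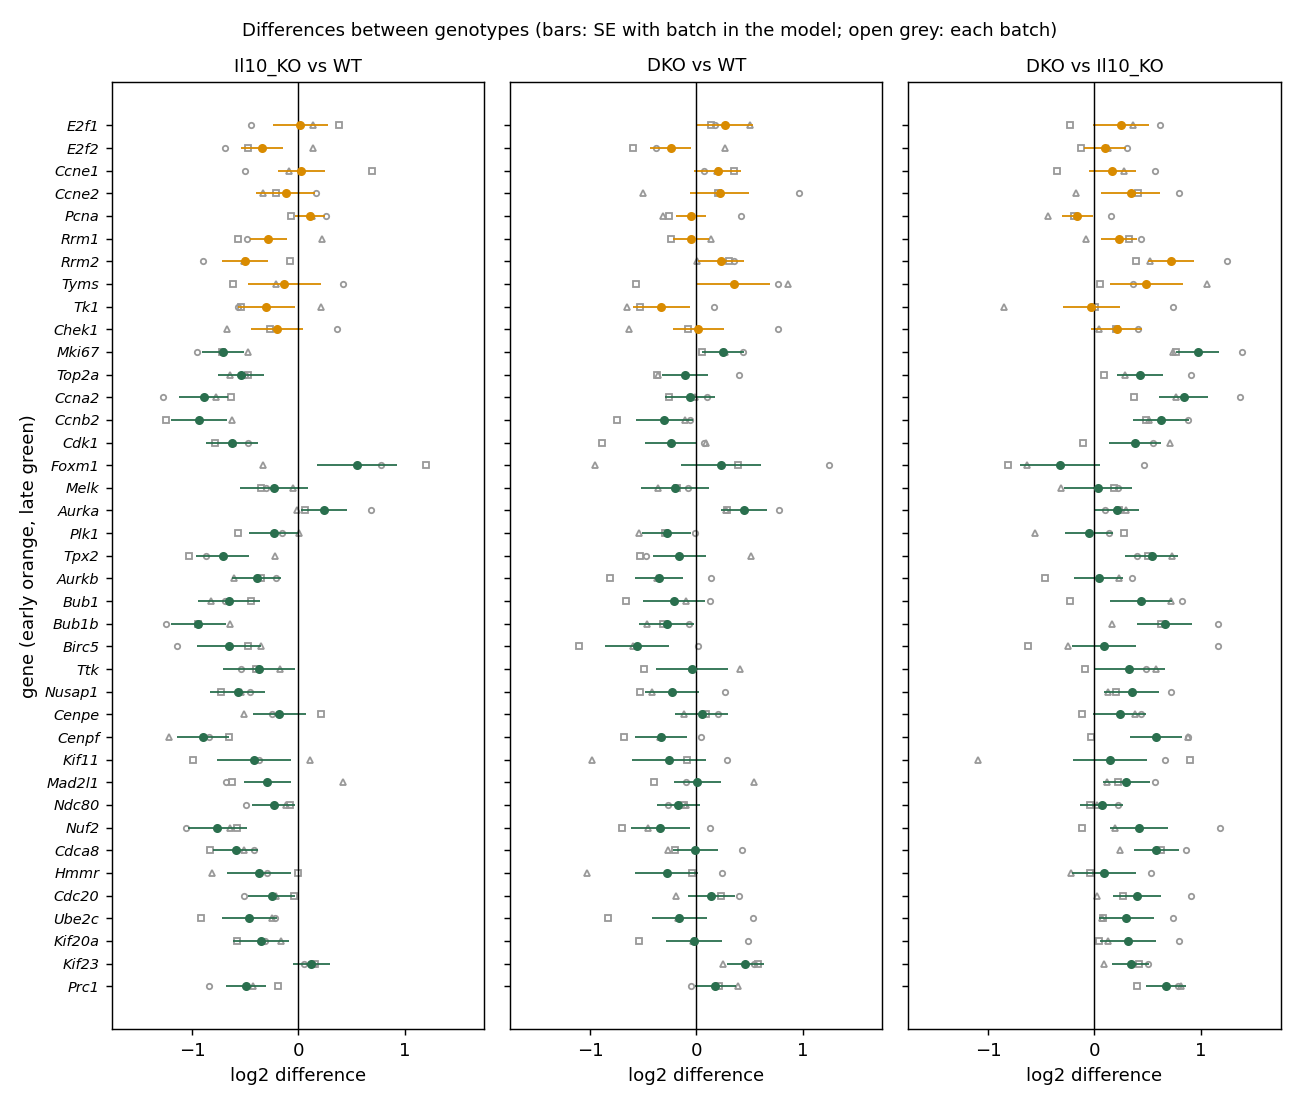
Log2 differences of the 39 genes (early orange, late green) for Il10_KO against WT, DKO against WT and DKO against Il10_KO; filled points are estimates, bars are standard errors with batch in the model, and open grey marks are the single batches 1 (circle), 2 (square) and 3 (triangle). Of the late genes, 26 of 29 lie left of 0 in the first panel and 27 of 29 right of 0 in the third.

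In DKO against Il10_KO, both labelled as lacking Il10, the cycle genes lay higher where Ebi3 was also missing. Of the 39, 35 lay above 0, with a median of 0.324, beside 0.007 over all tested probe sets. The medians in batches 1, 2 and 3 were 0.62, 0.09 and 0.17. The size thus came mainly from batch 1, and the median was 0.176 without DKO replicate 1. Mki67 (0.97), Ccna2 (0.84), Rrm2 (0.72), Prc1 (0.67), Tpx2 (0.54), Cdca8 (0.58) and Top2a (0.43) had all 3 DKO arrays above all 3 Il10_KO arrays, 7 of 39 genes against 2.19% of all tested probe sets. Limma called 0 of the 39 without batch (0.0032% of all tested probe sets) and 0 with batch (0.0032%). At an unadjusted p under 0.05, 3 were higher without batch, against 0.647% of all tested probe sets, and 9 with it, against 1.89%, and 18 were higher in all 3 batches, against 13.8%. This comparison uses the same Il10_KO arrays as the one above, so low Il10_KO readings enter both. All 11 tested neutrophil and myeloid markers also lay above 0 here, with a median of 0.496 (-0.22, 1.1 and 0.29 in batches 1, 2 and 3). B cell, CD8 T and NK cell and dendritic cell markers lay mostly below 0, at 5 of 6, 5 of 8 and 4 of 6. Plasma cell and red cell markers lay mostly above 0, at 5 of 6 and 3 of 4. The part of these lists was not tested.

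In Ebi3_KO against WT, 32 of the 39 genes lay below 0, with a median of -0.232 (all tested probe sets: -0.028), but 1 array set most of that size. The medians in batches 1, 2 and 3 were -0.64, -0.02 and -0.14, and without Ebi3_KO replicate 1 the median was -0.062, against -0.385 without Ebi3_KO replicate 3. Nuf2 (-0.84), Tpx2 (-0.80), Cenpf (-0.74), Ttk (-0.66), Ccna2 (-0.58) and Cdk1 (-0.49) had all 3 Ebi3_KO arrays below all WT arrays, 6 genes against 2.21% of all tested probe sets. In all 3 batches 15 were lower, against 15.3% of all tested probe sets. Limma called 0 of the 39 without batch (0.0032%) and 0 with batch (0.0032%). At an unadjusted p under 0.05, 3 were lower without batch, beside 0.816% of all tested probe sets, and 4 with it, beside 3.07%. Late and early genes had close medians here, -0.232 and -0.193. Markers of some other cells lay lower as well: 9 of 11 tested neutrophil and myeloid markers were below 0, with a median of -1.092, and 8 were lower in all batches. All 4 tested red cell markers were below 0, with a median of -0.87. B cell markers had 5 of 6 below 0 (median -0.292) and CD8 T and NK cell markers 5 of 8 (-0.193). Plasma cell markers had 3 of 6 below 0 (-0.055), while 4 of 6 dendritic cell markers lay above 0 (0.048). Their part in the cycle gene differences was not tested.

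Over all 39 genes together DKO and WT lay near each other, though late genes mostly lay lower. Of the 39 genes 25 were below 0, with a median of -0.057 (all tested probe sets: 0.009), and the medians in batches 1, 2 and 3 were 0.17, -0.26 and -0.12. The median was -0.217 without DKO replicate 1 and 0.051 without DKO replicate 2. Late genes had 21 of 29 below 0, with a median of -0.164 (0.13, -0.31 and -0.17 in batches 1, 2 and 3). Early genes had 6 of 10 above 0, with a median of 0.111. The late median was -0.224 without DKO replicate 1 (-0.411 with batch in the model) and 0.012 without DKO replicate 2. Rrm2 and Mki67 had all 3 DKO arrays above all WT arrays, by 0.23 ± 0.334 and 0.25 ± 0.252. So had 998 of all 31235 tested probe sets. Kif23 read 0.46 ± 0.297 with all batches above 0, the single gene at an unadjusted p under 0.05 in limma with batch. At that threshold 1364 of the 31235 probe sets were higher. Without batch none of the 39 was in either direction, where 0.964% of all tested probe sets were lower. With batch none was lower at that threshold, against 3.88% of all tested probe sets, and 5 were lower in all batches, against 15.2%. In all batches 6 were higher, against 4334 of the 31235 probe sets. Limma called 0 of the 39 without batch (0.0096%) and 0 with batch (0.0416%).

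In DKO against Ebi3_KO, both of which lack Ebi3, 30 of the 39 lay above 0, with a median of 0.173 (all tested probe sets: 0.036). The batches disagreed in sign, at 0.79, -0.18 and -0.12, and the median was 0.001 without Ebi3_KO replicate 1, 0.102 without DKO replicate 1 and 0.287 without DKO replicate 2. Limma called 0 without batch (0.0064%) and 0 with batch (0.0192%), with none higher at an unadjusted p under 0.05 without batch, beside 0.912% of all tested probe sets, and 3 (Mki67, Ccna2 and Tpx2) with it, beside 3.42%. In all batches 6 were higher, against 14.5%. Mki67 read 1.21, 0.07 and 0.12 over the batches, and Ccna2 read 1.26, 0.01 and 0.32. All 11 neutrophil and myeloid markers lay above 0, with a median of 0.683, 9 of them in all batches. Also above 0 were 7 of 8 CD8 T and NK cell markers (0.515) and 4 of 4 red cell markers (0.695). Plasma cell, B cell and dendritic cell markers each had 4 of 6 above 0 (0.326, 0.199 and 0.166). Conventional CD4 T cell and thymocyte markers went the other way, with 4 of 5 and 2 of 2 below 0. The part of these lists was not tested.

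The interaction asks whether the difference between libraries labelled with and without Il10 was the same with and without Ebi3, and equals DKO minus Ebi3_KO minus the difference of Il10_KO from WT. It lay above 0 for 37 of the 39 genes, all but Pcna and Foxm1, with a median of 0.483 (all tested probe sets: 0.036). The medians in batches 1, 2 and 3 were 1.14, 0.25 and 0.34, and with batch in the model the median was 0.267 without DKO replicate 1. Ccna2 read 1.42 ± 0.377, Tpx2 1.35 ± 0.449, Cenpf 1.32 ± 0.413 and Mki67 1.18 ± 0.357, each with an adjusted p of 1. Dimmer probe sets read 0.7 for Ccna2, 0.53 for Cenpf and -0.06, 0.6 and 0.56 for Tpx2. The sizes for these genes thus depend on the probe set. Limma called 0 of the 39 and 0% of all tested probe sets in either model. At an unadjusted p under 0.05, 5 were higher without batch, beside 0.692% of all tested probe sets, and 12 with it, beside 2.33%, and 19 were higher in all batches, against 13.1%. Of the 11 neutrophil and myeloid markers 10 lay above 0, with a median of 1.395, and 9 were higher in all batches. All 4 red cell markers lay above 0, with a median of 1.302. CD8 T and NK cell markers had 6 of 8 above 0 and plasma cell markers 3 of 6. B cell and dendritic cell markers had 4 of 6 and 5 of 6 below 0. The part of these lists was not tested. The F test over all genotypes called 0 of the 39 without batch (0.0096%) and 0 with it (0.0416%).

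**Figure D4:**
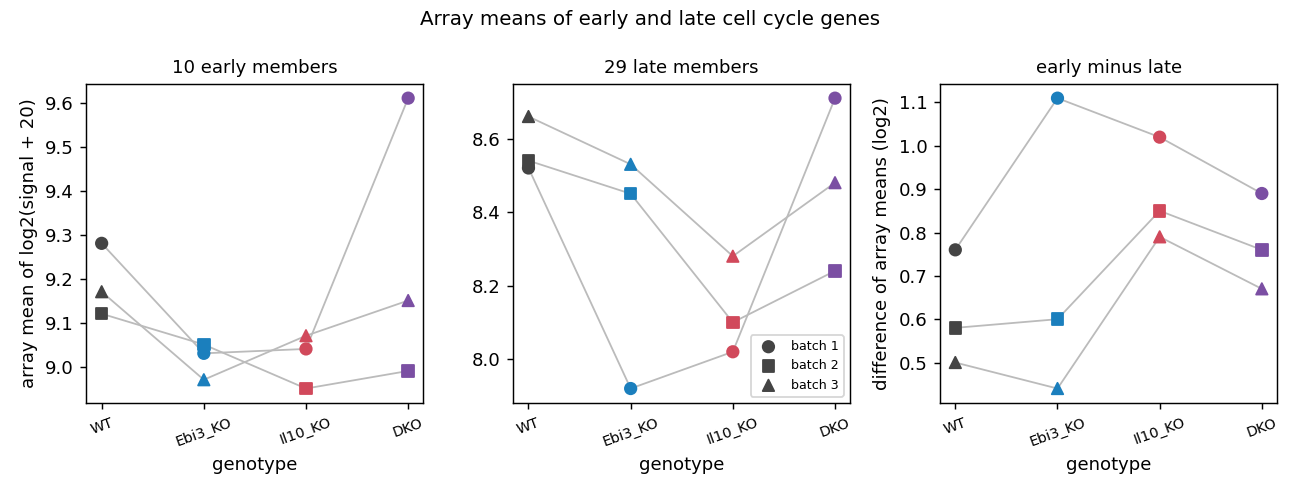
Array means of log2(signal + 20) over the 10 early genes (left) and the 29 late genes (middle), and their difference (right), by genotype; lines join arrays of a batch and symbols mark batches 1 (circle), 2 (square) and 3 (triangle). The late mean of Il10_KO (8.02 to 8.28) lies below that of WT (8.52 to 8.66), and axes do not start at 0.

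Early and late genes were then set against each other on each array. The late mean was 8.52, 8.54 and 8.66 in WT and 8.02, 8.10 and 8.28 in Il10_KO, a difference of -0.50, -0.45 and -0.38 within batches. The early mean was 9.28, 9.12 and 9.17 in WT and 9.04, 8.95 and 9.07 in Il10_KO, a difference of -0.24, -0.18 and -0.10. Both groups of Il10_KO means lay below all WT means, and the late difference was the larger in each batch. Early minus late was therefore higher in Il10_KO than in WT in every batch, by 0.26, 0.27 and 0.28 (mean 0.27, SD 0.01, n = 3). When all tested probe sets of a gene were averaged in place of the brightest, which brings in the dimmer Ccne1 probe set, this difference was 0.11, and with 100 under the log it was 0.203.

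Early minus late was also higher in DKO than in WT in every batch, by 0.13, 0.18 and 0.17 (mean 0.16). That mean became 0.034 when all probe sets of a gene were averaged. Ebi3_KO was less regular, with early minus late differing from WT by 0.34, 0.02 and -0.07 and batch 1 again apart. Its early means of 9.03, 9.05 and 8.97 also lay below all WT early means, a difference of -0.25, -0.08 and -0.2 within batches. The early mean itself was highest in DKO replicate 1 (9.61), where both sets of genes were high. The difference of an early from a late mean depends on which probe sets were taken, so its level within one array has no meaning of its own.

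After batch means were removed, late genes followed one another over the 12 arrays more closely than early genes did. The median correlation was 0.53 over 406 pairs of late genes, 367 of them above 0. It was 0.25 over 45 pairs of early genes and 0.35 over the 290 pairs of 1 early and 1 late gene. Top2a (0.98), Nusap1 (0.95), Ccna2 (0.92) and Bub1b (0.91) were closest to the mean of the other late genes. Among early genes Rrm2 (0.82) and Rrm1 (0.70) were closest to it, and Pcna was at -0.09. Among late genes Foxm1 (-0.20), Aurka (0.09) and Kif23 (0.20) did not follow it. These values describe arrays that share genotype groups and the low and high arrays of batch 1.

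Of 13860 other genes with a tested probe set, those closest to the late mean over the 12 arrays included Cenpp and Ncapg (0.97 each), Zbtb32 (0.96), Pbk and Mpp6 (0.94 each), Dut and Cdca5 (0.93 each), and Clspn and Pclaf (0.91 each). Cenpp encodes a centromere protein, Ncapg a condensin subunit and Cdca5 sororin, which protects cohesion between sister chromatids. Pbk encodes a mitotic kinase, Dut the dUTPase and Clspn claspin of the replication checkpoint. Zbtb32 encodes a zinc finger repressor of lymphocytes. In Il10_KO against WT the genes named here read from -1.16 (Cenpp) to -0.24 (Mpp6), and in DKO against WT from -0.41 (Pbk) to -0.01 (Cdca5). They were picked for following the late mean over these same arrays. Their directions between genotypes therefore come with the choice and add no separate evidence.

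The late genes with and without TTTGAA did not separate. In Il10_KO against WT, 15 of the 17 with the motif lay below 0, with a median of -0.46, and all 7 without it, with a median of -0.57. In DKO against Il10_KO the medians were 0.38 with the motif and 0.30 without.

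Other genes of the same pathways, from lists outside the 40, gave the following counts for Il10_KO against WT, with 0 called by limma in any of the lists in either direction with batch in the model. Of 29 other replication genes 27 lay below 0, with a median of -0.274, and 14 were lower in all batches, against 13.7% of all tested probe sets. At an unadjusted p under 0.05 in limma, 6 were lower with batch, against 3.6% of all tested probe sets. Without batch 0 were, against 0.775%. Cdc6, a loader of the replicative helicase, read -0.56. Of 37 other mitosis genes 31 lay below 0, with a median of -0.367, and 21 were lower in all batches, beside the same 13.7%. At an unadjusted p under 0.05, 10 of the 37 were lower with batch and 4 without, beside the same 3.6% and 0.775%. Ncapg read -0.89. Of 12 D cyclins, G1 kinases and G1 regulators 8 lay below 0, with a median of -0.218, Ccnd2 (cyclin D2) at -0.42 and E2f8, a repressive E2F, at -0.72.

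Of 21 cycle inhibitors and quiescence genes, 15 lay above 0 with a median of 0.086. Cdkn1a, the gene of the CDK inhibitor p21, read 154.8, 973.9 and 249.8 in WT and 973.1, 1828.5 and 306.5 in Il10_KO. The WT array of batch 1 entered each comparison with WT and set much of their size. Cdkn1a read 1.23 in Il10_KO, 1.12 in Ebi3_KO and 1.33 in DKO against WT with all arrays (adjusted p = 0.447 with batch in Il10_KO), and 0.7, 0.6 and 0.81 without WT replicate 1, an alternative chosen after seeing the data. In batch 3 alone the differences were 0.28, 0.12 and 0.62. In DKO against Il10_KO, 26 of 29 other replication genes and 31 of 37 other mitosis genes lay above 0, with medians of 0.169 and 0.314. The genes named from these lists were picked after their values were seen. The array means of the neutrophil and myeloid markers in batches 1, 2 and 3 were 8.73, 8.42 and 10.36 in WT, 7.68, 7.61 and 9.54 in Ebi3_KO, 8.20, 7.46 and 10.26 in Il10_KO and 8.12, 8.70 and 10.61 in DKO. Both single knockouts were below WT in each batch. None of the 12 markers stayed below the array's 40th percentile throughout, and their part in the cycle gene differences was not tested.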

How the data were processed

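RNA of 12 Treg samples was measured on Affymetrix mouse arrays. Per the submitters' processing notes, MAS5 and Partek 6.4 were used. The table as deposited holds natural log values, which fit MAS5 signals to which 20 was added: without it, signals come out as multiples of 0.1 and every array has the same trimmed mean. No file or label states this. Values were converted to log2(signal + 20) without further normalization. Of 45101 probe sets, 64 controls were left out, and the 31235 tested were those at or above the 40th percentile of an array on 3 or more arrays. Of the 34945 with 1 gene symbol, 34741 were matched to the mouse reference.

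One limma 3.58.1 model (R 4.3.3; lmFit, eBayes with trend) held the 4 genotypes, without batch (8 residual degrees of freedom). P-values were adjusted by Benjamini-Hochberg over all tested probe sets, with a threshold of 0.05. A second model added batch (6 residual degrees of freedom). Batch is the replicate number in the labels: after genotype means were removed, arrays of the same number correlated at 0.325 to 0.664 (18 pairs) and others at -0.702 to -0.0204 (48 pairs). Both models were tested on simulated data. Normalization, filter, offset, probe set choice and each array left out were also varied.

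Members and lists were chosen with earlier results of these data known. Values on every array are given for Mki67, Top2a, Ccna2, Cdk1, Cdc20, Plk1, Aurkb, Ccne1, E2f1, Pcna, Rrm2, Tyms and Tk1 (and would be for Ccnb1), for the 6 genes of smallest genotype F test p with batch, and for genes whose probe sets oppose each other in sign by over 1 SE. The precision is limited by the number of arrays.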

Additional observations from a re-analysis of the deposited data

Results flagged for a closer look

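In every batch, 4 cycle genes read lower in Il10_KO than in WT and higher in DKO than in Ebi3_KO. That pattern is why they are listed, and its share over all tested probe sets was not counted. For Mki67, Il10_KO minus WT was -0.95, -0.72 and -0.47 in batches 1, 2 and 3, and DKO minus Ebi3_KO was 1.21, 0.07 and 0.12, an interaction of 1.18 ± 0.357. For Ccna2 the values were -1.27, -0.63 and -0.77 against 1.26, 0.01 and 0.32, an interaction of 1.42 ± 0.377. For Tpx2 they were -0.87, -1.03 and -0.22 against 0.28, 0.82 and 0.82, an interaction of 1.35 ± 0.449. For Prc1 they were -0.84, -0.19 and -0.43 against 0.30, 0.19 and 0.25, an interaction of 0.74 ± 0.358. None of the 4 interactions passed limma's test (adjusted p = 1 for each, with or without batch), and several of the single differences lie close to 0. Dimmer probe sets of Ccna2 and Tpx2 gave smaller interactions, as given above. Groups of 3 arrays are too small for an outlier test.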

How the results depend on the processing

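The count of called cycle genes was 0 for every genotype comparison under all 35 settings. The 19 genes given array by array had 4440 alternative values, and 0 were called. Those within a single batch carried no test and could not be called. Of 114 such gene and comparison pairs, 50 had no sign change under any setting. With the replicate block the count of calls stayed 0, and unadjusted p under 0.05 for lower genes in Il10_KO against WT went from 5 to 15. The median for Il10_KO against WT was -0.271 with 100 under the log, -0.485 within batch 1, -0.473 within batch 2 and -0.492 without batch 3, and -0.52 to -0.319 over single arrays left out. Within batch 1 the medians were -0.64 (Ebi3_KO against WT), 0.172 (DKO against WT), 0.786 (DKO against Ebi3_KO), 0.619 (DKO against Il10_KO) and 1.141 (interaction). Cycle genes called for batch numbered 9 to 15 over arrays left out, 9 without Ebi3_KO replicate 1, and 20 with each array centred on its median. The number of arrays limits the precision, and Tyms and Ttk were dim.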
